A study of Mus musculus with 20 samples.

Results

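The step from day 4 to day 10 of a culture series from mouse embryonic stem cells to epiblast stem cells was examined in 8 of the series' 20 small RNA libraries, picked by their labelled line and day. The 4 libraries of day 4 and the 4 of day 10 came from a female line, PGK, and a male line, E14, with 2 libraries for each line and day. In both lines the cells left the naive medium (2i) at day 0. From then on they grew on fibronectin in N2B27 with Activin A and Fgf2, and from day 4 they were split with Accutase every 2 days. The labels describe the cells of both days as on the way from embryonic to epiblast stem cells. No genotype or agent separated day 10 from day 4, so time and repeated splitting cannot be told apart, and with 1 line of each sex, neither can sex and line. The 2 libraries of a group came from differentiation experiments 2 and 3, called replicates 2 and 3 here. The p-values measure only the spread between such experiments and, in the test over both lines, also any difference between the lines' changes.

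Each library held between 7362470 and 18031067 counts assigned to miRNAs and between 885 and 919 detected miRNAs, and the 10 most abundant miRNAs took 48.6% to 60.4% of the counts. Of 1063 miRNAs listed for both lines, 760 had enough counts to be tested. Levels are given as CPM, counts relative to the library total, scaled between libraries by TMM, a factor that keeps the bulk of the miRNAs level. A change is the log2 ratio of day 10 to day 4 with its standard error, and a miRNA is called higher or lower where edgeR's quasi-likelihood test with line as a block gave an adjusted p under 0.05. With libraries of whole cultures, fewer cells of a type and less of a miRNA per cell cannot be told apart.

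A miRNA is a short RNA cut from a hairpin transcript. Its bases 2 to 8, the seed, pair with messenger RNAs, and miRNAs that share a seed can bind the same sites. Mouse stem cells of the naive state are known for the miR-290 cluster, and primed cells, which resemble the epiblast after implantation, for the miR-302 cluster, whose transcript also holds miR-367. The let-7 family is held low in pluripotent cells by the protein Lin28 and accumulates on differentiation, and the miR-17-92 clusters are known for promoting proliferation.

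The sequences below are those of the miRNAs on which the results turn, with the seed in capitals, from RefSeq for the GRCm38.p6 assembly. By name, 611 of the 760 tested miRNAs were matched there, and 5 more by gene symbol. Positions are hairpins in the GENCODE M21 annotation of GRCm38. The miR-23a/27a/24-2 transcript of chromosome 8, at chr8:84208518-84208592 on the plus strand for miR-23a, lay in no annotated host gene and gave the first set, which rose. miR-27b-3p, from the related cluster on chromosome 13, stands beside them for its seed and was not called.
miR-23a-3p: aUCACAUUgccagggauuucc
miR-27a-3p: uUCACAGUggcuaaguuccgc
miR-24-2-5p: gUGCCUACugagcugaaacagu
miR-24-3p: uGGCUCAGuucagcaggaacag
miR-27b-3p: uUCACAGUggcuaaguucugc
The second set shares the seed AUUGCAC and is shown because 2 of its members fell and 2 were not called.
miR-92a-3p: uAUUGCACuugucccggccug
miR-363-3p: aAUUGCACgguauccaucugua
miR-25-3p: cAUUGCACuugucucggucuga
miR-367-3p: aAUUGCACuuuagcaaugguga
The third set shows 2 arms of the miR-302 cluster (chromosome 3) beside the most abundant arm of the miR-290 cluster (chromosome 7). These 3 share the seed AAGUGCU.
miR-302b-3p: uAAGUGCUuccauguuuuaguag
miR-302d-3p: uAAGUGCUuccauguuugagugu
miR-295-3p: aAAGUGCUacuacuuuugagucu
The fourth set comes from the Spaca6 gene on chromosome 17, where miR-99b, let-7e and miR-125a lie between positions 17830188 and 17830879 on the plus strand.
miR-99b-5p: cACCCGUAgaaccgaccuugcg
let-7e-5p: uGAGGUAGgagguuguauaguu
miR-125a-5p: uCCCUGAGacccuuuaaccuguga
The fifth set belongs to a cluster of the X chromosome known from male germ cells, from the hairpin of miR-743a at chrX:66776757-66776818 to that of miR-465a at chrX:66839052-66839125, all on the minus strand and between genes. It held the steepest falls.
miR-871-3p: uGACUGGCaccauucuggauaau
miR-470-5p: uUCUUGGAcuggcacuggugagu
miR-465c-5p: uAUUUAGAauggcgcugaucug
miR-881-3p: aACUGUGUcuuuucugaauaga
miR-743a-3p: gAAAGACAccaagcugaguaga
The last set holds other miRNAs that rose (the first 4) or fell (the last 3) over both lines.
miR-208b-3p: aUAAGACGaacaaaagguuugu
miR-218-5p: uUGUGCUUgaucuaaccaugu
miR-22-3p: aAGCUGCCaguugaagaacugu
miR-28a-5p: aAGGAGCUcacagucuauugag
miR-142-5p: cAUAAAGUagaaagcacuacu
miR-488-3p: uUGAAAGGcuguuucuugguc
miR-672-5p: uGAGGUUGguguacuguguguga

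Between day 4 and day 10, 33 of the 760 miRNAs rose (4.34%) and 64 fell (8.42%), which is 12.8% in all. The fallers included 28 miRNAs of the X-linked germ cell cluster, and 36 lay outside it. The rises included 3 arms of the miR-23a/27a/24-2 cluster and 3 of the miR-99b/let-7e/miR-125a cluster, miR-302a-3p and miR-302c-3p, miR-375-3p, miR-22-3p, both arms of miR-28a, miR-218-5p and the heart muscle miRNA miR-208b-3p. Besides the germ cell cluster, the falls included 4 arms of the miR-106a-363 cluster of the X chromosome and its abundant relative miR-92a-3p, the blood cell miRNAs miR-142-5p and miR-150-5p, and miR-488-3p. Other blood and muscle miRNAs went the other way: both arms of miR-486 rose, and miR-208a-3p fell. Of the 97 called miRNAs, 50 reached a mean of 50 CPM on the day they were higher. In 57 of the called miRNAs, all 4 libraries of one day lay above all 4 of the other. Over all tested miRNAs the share was 12.9% (6.97% higher at day 10 and 5.92% lower). Calls and overlap were read from the same libraries, so a larger share among the called was fixed in advance. None of those 57 was in the germ cell cluster.

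The number of calls depended on the model. With the experiment number added as a further term, 181 were called, 80 higher (10.5%) and 101 lower (13.3%). With the experiment blocked within lines, 132 were called, 51 higher (6.71%) and 81 lower (10.7%). With counts scaled by the library total alone, the median change of all miRNAs moved from 0.00 to 0.16, and the calls split into 43 higher and 48 lower instead of 33 and 64.

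**Figure D1:**
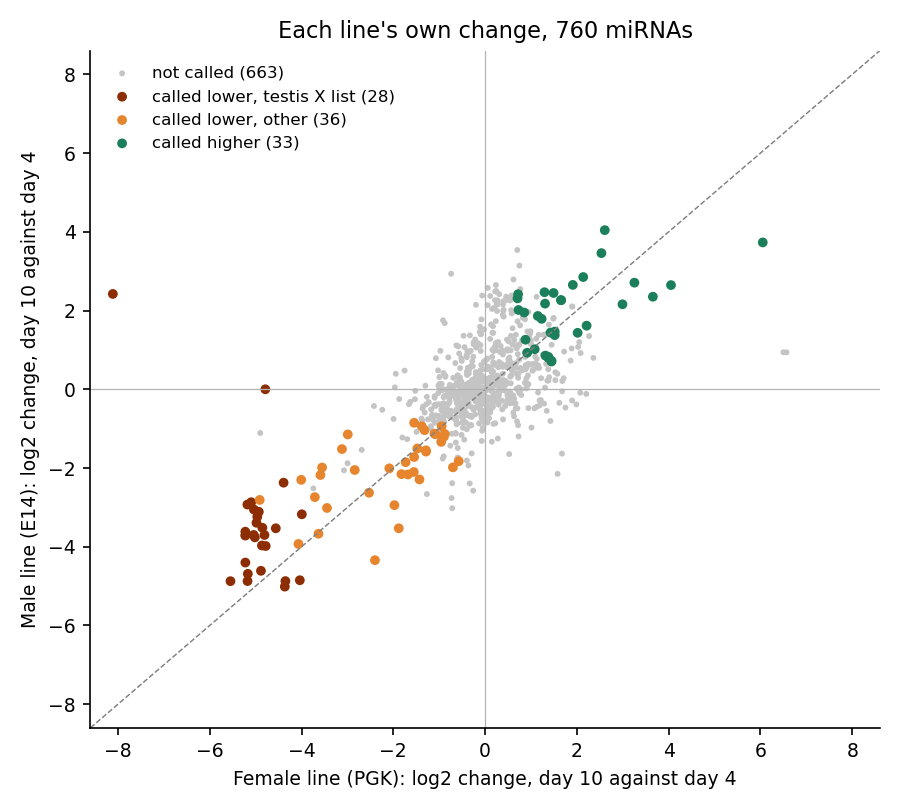
Log2 change from day 4 to day 10 in the female line (horizontal axis) and in the male line (vertical axis) for the 760 tested miRNAs, 2 libraries per line and day. Points are coloured by the call over both lines: 33 higher, 28 lower in the X-linked germ cell list, 36 lower elsewhere and 663 not called. The dashed line marks equal changes. The germ cell list stands at the lower left, and the called point above 0 for the male line is miR-463-3p, which had 0 counts in 3 of the 4 male libraries.

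Each line was also taken on its own. In the female line 2 miRNAs were called higher (0.263%) and 33 lower (4.34%), 4.61% in all, with adjusted p-values from 0.00724 to 0.0490, and 25 of the fallers were in the germ cell cluster. In the male line 26 were called higher (3.42%) and 11 lower (1.45%), 4.87% in all, and of these 37, 35 shared the adjusted p of 0.0471. miR-142-5p, miR-465b-5p, miR-465c-5p and miR-871-3p were called, all lower, in both lines. The test of the difference between the lines' changes called 0 miRNAs (0% of 760, the lowest adjusted p being 0.777), with 46 at an unadjusted p under 0.05, and DESeq2 also called 0. A miRNA called in one line only is therefore not shown to differ between the lines.

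The calls of single lines were fragile. With either of its day 10 libraries left out, the female line had 0 edgeR calls, with 132 and 94 miRNAs at an unadjusted p under 0.05. The male line had 0 calls with either female day 10 library left out, with replicate 2 of the male line left out at either day, with the other scalings, or with the 480 miRNAs of at least 10 CPM, and 101 to 158 miRNAs at an unadjusted p under 0.05. With the experiment within each line as a block, the female line had 60 calls, 15 higher (1.97%) and 45 lower (5.92%), and the male line 98, 56 higher (7.37%) and 42 lower (5.53%).

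Of the miR-23a/27a/24-2 cluster, 3 of 4 tested arms rose over both lines and none fell. Its miRNAs are known regulators of differentiation and of the cell cycle in many tissues. miR-27a-3p stood at 758 and 776 CPM at day 4 and 1614 and 1991 CPM at day 10 in the female line, replicates 2 and 3 in that order here and throughout. The male values went from 243 and 444 CPM to 1225 and 1148 CPM. Every day 10 library was above every day 4 library, and the change was 1.51 ± 0.29 (adjusted p = 0.00705), 2.85-fold.

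miR-23a-3p measured 124 and 149 CPM, then 273 and 399 CPM in the female line, and 27.4 and 73 CPM, then 323 and 232 CPM in the male line. The days did not overlap, and the rise was 1.88 ± 0.41 (adjusted p = 0.0121). miR-24-2-5p, the passenger arm of the same transcript, rose by 1.96 ± 0.40 (adjusted p = 0.00942), from 69.7 and 119 CPM to 238 and 356 CPM in the female line and from 21.8 and 66.1 CPM to 187 and 235 CPM in the male line. The hairpin on the opposite strand, annotated as miR-3074-2, had counts for its 3p arm that differed from those of miR-24-2-5p by at most 0.735% in any library, so these 2 entries cannot be told apart. miR-24-3p, whose sequence is made from this cluster and from the related one on chromosome 13, rose by 1.49 ± 0.28 (adjusted p = 0.0068).

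Over the cluster, 3 of 4 tested arms were called higher, against 4.34% of all tested miRNAs. The median change was 1.69, against 0.00 over all. The cluster on chromosome 13, with miR-23b, miR-27b and miR-24-1, had no call among 5 tested arms and a median of 0.13. miR-27b-3p, which shares the seed of miR-27a-3p, stood at 11728 and 9084 CPM and then 15094 and 10719 CPM in the female line. The male values were 20323 and 17811 CPM and then 20968 and 15705 CPM. Its days overlapped, with a change of 0.13 ± 0.25 (adjusted p = 0.779). Whether the 2 clusters' changes differed was not tested. On chromosome 8 as a whole, 11 of 26 tested miRNAs were called higher and 0 lower, against 4.34% and 8.42% of all. They were miR-23a-3p, miR-27a-3p, miR-24-2-5p, miR-24-3p, the antisense entries miR-3074-5p and miR-3074-2-3p, both arms of miR-486 and of its antisense entry miR-3107, and miR-138-5p. Several of these share a transcript or a hairpin, and miR-24-3p, miR-3074-5p and miR-138-5p can also come from other loci.

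**Figure D2:**
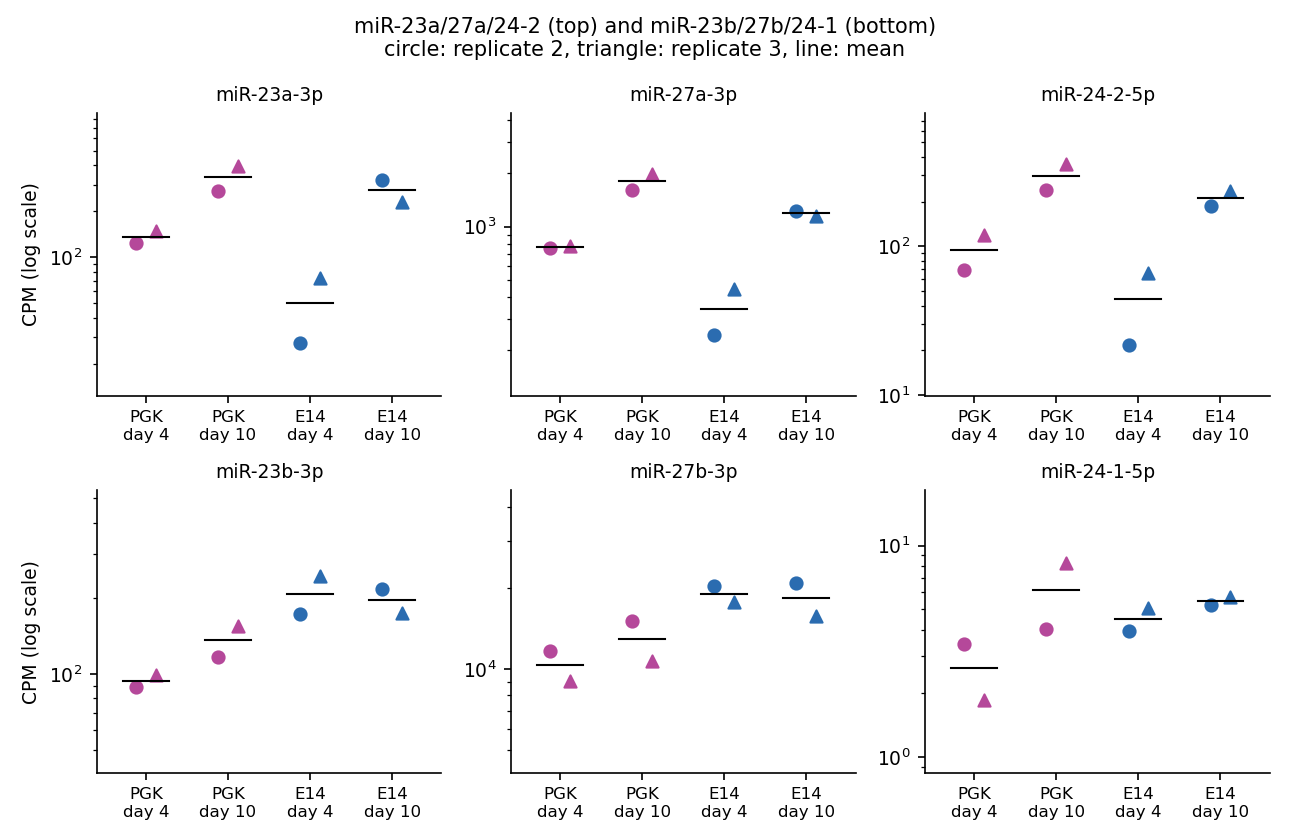
CPM on log scales for 3 arms of the miR-23a/27a/24-2 cluster of chromosome 8 (top) and 3 of the miR-23b/27b/24-1 cluster of chromosome 13 (bottom), per line and day. Circles are replicate 2, triangles replicate 3 and lines the mean of the 2 libraries. The day 10 points of miR-23a-3p, miR-27a-3p and miR-24-2-5p all lie above the day 4 points, while those of miR-27b-3p overlap.

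In the miR-302 cluster of primed cells, 2 of 10 tested arms rose, against 4.34% of all tested miRNAs. None fell, and the median change was 1.03. The cluster's share of all counts was 1.17% and 1.93% in the female libraries of day 4 and 2.61% and 2.72% in those of day 10. The male libraries had 1.54% and 0.942% at day 4 and 5.77% and 5.09% at day 10. The days did not overlap in either line. Own medians were 0.27 for the female line and 1.64 for the male line. There 3 arms were called higher on their own, against 3.42% of all miRNAs. With the experiment as a block within lines, 4 arms were called higher, against 6.71% of all. With the experiment number as a term it was 5 arms, against 10.5%.

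miR-302a-3p stood at 3324 and 4807 CPM, then 7334 and 6054 CPM in the female line, and at 3812 and 2313 CPM, then 19520.3 and 13157 CPM in the male line. It rose by 1.57 ± 0.40 (adjusted p = 0.0253), with no overlap between days, and the call ended without either male library of day 4 or replicate 2 of the male line at day 10 (adjusted p from 0.0503 to 0.115). miR-302d-3p, the most abundant arm, measured 6436 and 5487 CPM, then 10752 and 7046 CPM in the female line, and 7112 and 2513 CPM, then 35721 and 14456 CPM in the male line. Its difference was 1.48 ± 0.49 (adjusted p = 0.071), with adjusted p = 0.0266 and 0.022 with the experiment blocked within lines and as an added term. miR-302b-3p differed by 1.12 ± 0.40 (adjusted p = 0.0835, or 0.04998 with the added term).

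The miR-290 cluster had no call among 14 tested arms, with a median of -0.18, and held 11% and 15.3% of the counts in the female libraries of day 4 and 10.5% and 12.7% in those of day 10. In the male line it held 11.7% and 17.6% at day 4 and 14.2% and 17.8% at day 10. The markers of both states were abundant on both days. miR-295-3p, its most abundant arm, had 88166 and 87062 CPM and then 60090.5 and 61800.3 CPM in the female line and 81236 and 91920.1 CPM and then 109502 and 90159.7 CPM in the male line, a difference of -0.16 ± 0.24 (adjusted p = 0.703). The seed AAGUGCU, carried by miR-295-3p, miR-291a-3p, miR-294-3p, miR-302b-3p and miR-302d-3p, had no call among those 5.

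The seed AUUGCAC was carried by 6 tested miRNAs, of which 2 fell, against 8.42% of all, and none rose. miR-92a-3p, from the miR-17-92 cluster of chromosome 14 and the miR-106a-363 cluster of the X chromosome, was among the most abundant miRNAs of every library. It had 177195 and 101595 CPM at day 4 and 75055 and 69735 CPM at day 10 in the female line, and 199073 and 113861 CPM and then 79997 and 83169.6 CPM in the male line. All day 10 libraries were below all day 4 libraries, and replicate 2 was the higher one at day 4 in both lines. The change was -0.94 ± 0.27 (adjusted p = 0.0439), 1.92-fold lower, and the call stayed only without replicate 3 of either line at day 4 (adjusted p from 0.0726 to 0.162 without the others). miR-363-3p, the last miRNA of the X-linked cluster, fell by 1.11 ± 0.28 (adjusted p = 0.0275), from 5149 and 3581 CPM to 2673 and 1456 CPM in the female line and from 7263 and 5757 CPM to 2530.4 and 3372 CPM in the male line. Its call ended without 5 of the 8 libraries (adjusted p from 0.0517 to 0.1): replicate 2 of the female line at day 4, replicate 3 of it at day 10, replicate 2 of the male line at day 4 and either male library of day 10.

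miR-367-3p, which carries the same seed but belongs to the miR-302 cluster, was higher at day 10 in all 4 libraries. It measured 351 and 415 CPM, then 524 and 635 CPM in the female line, and 522 and 297 CPM, then 1407 and 991 CPM in the male line. The difference of 1.07 ± 0.33 was not called (adjusted p = 0.0531) but passed with the experiment blocked within lines (0.0323) or added (0.0279). miR-25-3p, from the miR-106b-25 cluster in Mcm7, overlapped between days, with a difference of -0.17 ± 0.31 (adjusted p = 0.756). The summed level of the seed group, mostly miR-92a-3p, went from 197258 and 114530.0 CPM to 91428 and 80956 CPM in the female line and from 227211 and 133105 CPM to 106882 and 99766 CPM in the male line, with no test of the sum.

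Over miR-17-92 and its paralogs, 5 of 28 tested arms fell, against 8.42% of all, and none rose, with a median of -0.43. With the experiment number as a term, 8 fell, against 13.3% of all. The calls lay in the miR-106a-363 cluster of the X chromosome, with 4 of 10 arms lower and a median of -1.10 (7 lower with the experiment number as a term), and in miR-92a-3p. In 8 of these 10 arms both day 10 libraries lay below both day 4 libraries within each line, against 15.3% of all tested miRNAs. The arms made from chromosome 14 alone had 0 of 10 called and a median of -0.11, and those of the miR-106b-25 cluster 0 of 6 and -0.16. miR-18b-3p fell from 44.7 and 53.9 CPM to 16.4 and 24 CPM in the female line and from 61.9 and 65.9 CPM to 9.73 and 33.1 CPM in the male line (-1.44 ± 0.39, adjusted p = 0.0368). miR-20b-3p fell by 1.16 ± 0.34 (adjusted p = 0.0492), with no overlap between days for either. These calls were near the threshold: that of miR-18b-3p held only without replicate 3 of the male line at day 10 (otherwise 0.0507 to 0.0814), and that of miR-20b-3p only without replicate 3 of either line at day 4 (otherwise 0.0506 to 0.157).

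In the miR-99b/let-7e/miR-125a cluster, the 3 abundant arms rose. The miR-99 and miR-125 families often lie beside let-7 in the genome but carry other seeds, and miR-125a is known for acting on Lin28. Of 6 tested arms, 3 were called higher, against 4.34% of all tested miRNAs, and none lower. The median was 0.97, and all 6 differed in the direction of a rise. miR-99b-5p stood at 4837 and 6037 CPM, then 10111 and 16957 CPM in the female line, and 8195 and 10756 CPM, then 18909.9 and 15386 CPM in the male line, a rise of 1.09 ± 0.27 (adjusted p = 0.024). Within each line the days were apart, and the male libraries of day 4 reached into the female range of day 10.

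miR-125a-5p rose by 1.05 ± 0.25 (adjusted p = 0.0205), from 2364 and 2403 CPM to 3843 and 6248 CPM in the female line and from 3689 and 3082 CPM to 7369 and 6331 CPM in the male line, with no overlap between days. let-7e-5p had 184 and 165 CPM, then 224 and 418 CPM in the female line, and 99.2 and 125 CPM, then 309 and 228 CPM in the male line. It rose by 1.07 ± 0.31 (adjusted p = 0.044), again with no overlap. The 3 calls depended on single libraries. The call of let-7e-5p held only without replicate 2 of the female line at day 10 (otherwise 0.0715 to 0.151). That of miR-125a-5p ended without any library but that one and the 2 male ones of day 10 (0.0582 to 0.0827), and that of miR-99b-5p without either female library of day 4, replicate 3 of the female line at day 10 or replicate 2 of the male line at day 4 (0.0579 to 0.0859).

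No other let-7 arm rose. Without let-7e, 14 arms were tested, of which none rose and 1 fell (let-7d-3p), against 8.42% of all. All 14 had a negative change, with a median of -0.82. With the experiment number as a term, 5 of them were lower, against 13.3% of all. let-7i-5p had 274 and 216 CPM, then 115 and 125 CPM in the female line, and 180.4 and 140.3 CPM, then 92.2 and 108 CPM in the male line, a difference of -0.85 ± 0.28 (adjusted p = 0.0648, or 0.0354 with the experiment number as a term). let-7c-5p differed between the male libraries of day 10, at 587 and 122 CPM, and overlapped between days (-0.78 ± 0.61, adjusted p = 0.424). Both share the seed GAGGUAG with let-7e-5p, so 1 of the 9 tested members of that seed rose and the median of the 9 was -0.85.

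miR-375-3p, known from pancreatic islets and other endocrine and endodermal cells, had 465 and 1037 CPM and then 3813 and 4891 CPM in the female line. The male values were 431 and 185 CPM and then 5933 and 843 CPM. The male libraries of day 10 were far apart, and the lower of them was below the highest library of day 4. The rise was 3.0 ± 0.59, 7.98-fold (adjusted p = 0.00755), and 2.13 without replicate 2 of the male line at day 10.

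miR-208b-3p lies in an intron of Myh7, a myosin gene of heart and slow muscle, and rose 9.97-fold, by 3.32 ± 0.57 (adjusted p = 0.00421). It had 10.2 and 4.86 CPM, then 53.8 and 38.4 CPM in the female line, and 5.32 and 3.01 CPM, then 113 and 25 CPM in the male line. The days did not overlap, and without replicate 2 of the male line at day 10, the highest library, the rise was 2.61. miR-3099-3p, in an intron of the imprinted gene Usp29, rose by 2.49 ± 0.45 (adjusted p = 0.00556), from 16.2 and 19.7 CPM to 46.4 and 112 CPM in the female line and from 8.32 and 5.93 CPM to 78.3 and 24.7 CPM in the male line.

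miR-218-5p comes from introns of Slit2 and Slit3, genes of axon guidance. It had 60.7 and 101 CPM, then 487 and 261 CPM in the female line, and 229 and 188 CPM, then 854 and 422 CPM in the male line, a rise of 1.91 ± 0.37 (adjusted p = 0.0068) with no overlap between days, and it was called in the female line on its own (2.21 ± 0.53, adjusted p = 0.0431). miR-28a-5p, in an intron of Lpp, rose by 1.45 ± 0.32 (adjusted p = 0.0131), from 385 and 307 CPM to 873 and 1109 CPM in the female line and from 448 and 377 CPM to 1508 and 633 CPM in the male line. Its other arm, miR-28a-3p, rose by 1.51 ± 0.40 (adjusted p = 0.0337), a call that held only without replicate 3 of the female line at day 4 or of the male line at day 10 (otherwise 0.052 to 0.115).

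miR-22-3p, an abundant miRNA of many differentiated tissues, made from an exon of the Mir22hg transcript, had 20332 and 14554 CPM and then 26527 and 30395 CPM in the female line. The male libraries had 11313 and 10162 CPM and then 79457 and 26985 CPM, so that replicate 2 of day 10 stood far above the rest. The days did not overlap. The rise was 1.51 ± 0.42 (adjusted p = 0.0426), and the call ended without either male library of day 4 (0.0883 to 0.152). miR-21a-5p, known from mesenchymal and stressed cells, was also higher in all libraries of day 10, at 21109 and 13614 CPM against 12232 and 8229 CPM in the female line and 45262 and 14881 CPM against 9108 and 10402 CPM in the male line. Its difference of 1.19 ± 0.38 was not called (adjusted p = 0.0601) but passed with the experiment blocked within lines (0.0358) or added (0.0172). miR-138-5p, known from neurons, rose by 0.92 ± 0.27 (adjusted p = 0.0497), and that call held only without replicate 2 of the female line at day 10 (otherwise 0.0779 to 0.171).

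The X-linked germ cell cluster had the steepest falls. The list held 29 names, of which 28 were tested and all 28 fell, with changes of -5.52 to -3.92 and a median of -4.47. The expression filter, applied by line and day, could admit a weak member through the female libraries of day 4 alone. The fall of such a member is partly fixed by the filter. At female day 4, 23 of the 28 had a mean of at least 10 CPM. The cluster's summed level was 19219.5 and 4573 CPM at day 4 and 555 and 198 CPM at day 10 in the female line. The male values were 234 and 51.5 CPM and then 12.3 and 11.3 CPM. One male library of day 4 lay between the female libraries of day 10 in this sum, and the other below both. The median of the own changes was -4.97 in the female line, with 25 members called, and -3.70 in the male line, with 3 called. In the male line 11 members had 0 counts in both libraries of day 10. With 6 members put at the bound that 3 counts per library allow and 6 left out because they were at 0 on one day and at or under that floor on the other, the male median was -3.32.

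miR-871-3p had 3574 and 1016 CPM at day 4 and 105 and 40.1 CPM at day 10 in the female line, and 41.9 and 13 CPM and then 2.29 and 2.96 CPM in the male line. Each line's days were apart, the male libraries of day 4 overlapped with the female ones of day 10, and the change was -4.23 ± 0.63 (adjusted p = 0.00352). miR-470-5p fell by 4.45 ± 0.76 (adjusted p = 0.00421), from 3351 and 713 CPM to 113 and 27.1 CPM in the female line and from 43.5 and 7.39 CPM to 2.15 and 1.03 CPM in the male line. miR-465c-5p fell by 4.44 ± 0.64 (adjusted p = 0.00317), from 2822 and 771 CPM to 76.3 and 34.7 CPM in the female line and from 34.4 and 7.68 CPM to 1.5 and 1.6 CPM in the male line. In all 3, replicate 2 of the female line at day 4 was the highest library, several times above replicate 3. Without it the changes were -3.57, -3.70 and -3.77, each still called.

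miR-881-3p had 1303 and 243 CPM, then 33.6 and 9.05 CPM in the female line, and 15.9 and 2.14 CPM, then 1.72 and 0.57 CPM in the male line. Its change of -4.17 ± 0.90 (adjusted p = 0.0121) was -3.19 without replicate 2 of the female line at day 4, and its call ended without replicate 2 of the male line at day 4 (adjusted p = 0.0682). miR-743a-3p was seen almost only in the female line, with 78.1 and 28.1 CPM at day 4 and 1.47 and 0.774 CPM at day 10, a change of -5.52 ± 0.64 (adjusted p = 0.00124), or -4.64 without replicate 2 of the female line at day 4. miR-465b-3p and miR-465c-3p have the same mature sequence, counts within 0.676% of each other in every library, and cannot be told apart. All 28 members were still called lower with the experiment as a block within lines or as an added term. With these miRNAs left out of scaling and testing, 48 of 732 others were called, 22 higher and 26 lower.

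**Figure D3:**
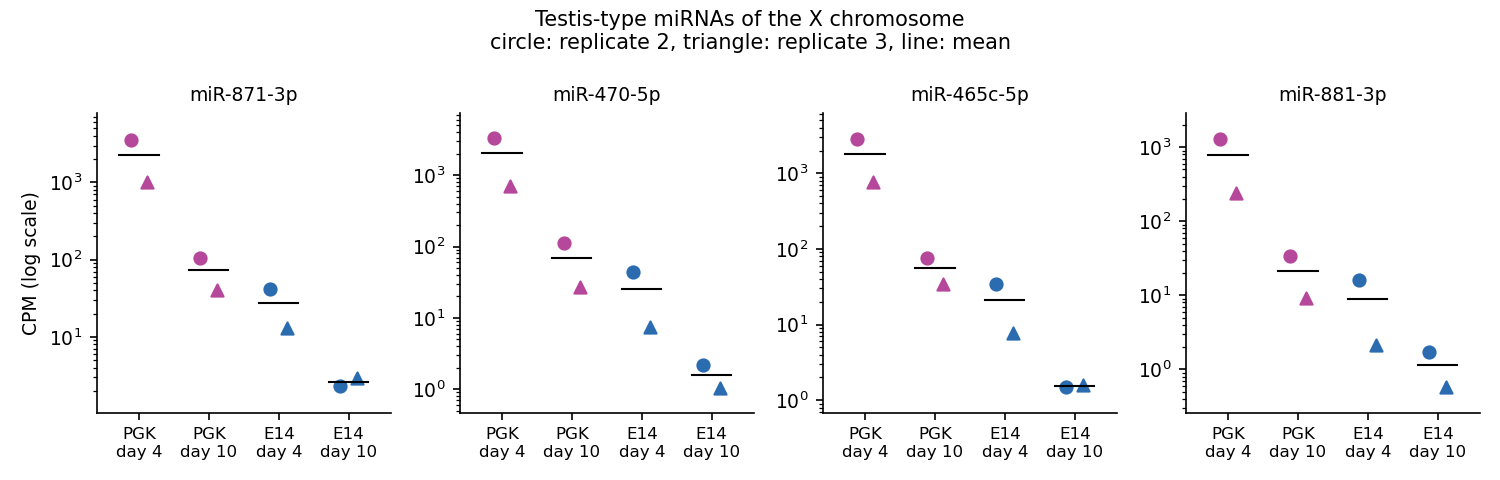
CPM on log scales of 4 miRNAs of the X-linked germ cell cluster per line and day. Circles are replicate 2, triangles replicate 3 and lines the mean of the 2 libraries. In each panel the female libraries of day 4 are highest and the male ones of day 10 lowest, and both lines are lower at day 10 than at day 4.

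Outside this cluster, the X chromosome had 2 calls higher and 8 lower among 71 tested miRNAs, with a median of -0.29. Over all tested miRNAs, 4.34% were higher and 8.42% lower, so neither count stood far from these shares. Of the 8 lower, 4 were the arms of the miR-106a-363 cluster given above. miR-672-5p, in an intron of Nexmif on the X chromosome, fell from 1307 and 428 CPM to 76.5 and 31.4 CPM in the female line and from 752 and 416 CPM to 165 and 72.3 CPM in the male line (-3.15 ± 0.57, adjusted p = 0.00556). The days did not overlap, and it was called in the female line on its own (-4.01 ± 0.75, adjusted p = 0.0184).

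miR-142-5p, known from blood cells, had 146 and 131 CPM, then 11.9 and 11.7 CPM in the female line, and 43.8 and 56.2 CPM, then 13.5 and 11.7 CPM in the male line. It reached about the same level in both lines at day 10 and fell by 2.77 ± 0.39 (adjusted p = 0.00293). The own changes were -3.55 ± 0.44 in the female line (adjusted p = 0.00724) and -1.99 ± 0.41 in the male line (adjusted p = 0.0471).

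miR-150-5p, known from lymphocytes, fell from 277 and 180.1 CPM to 10.2 and 31.7 CPM in the female line and from 89.6 and 93.4 CPM to 3.86 and 18.9 CPM in the male line (-3.23 ± 0.54, adjusted p = 0.00379, -3.92 without replicate 3 of the male line at day 10). miR-1965 had 1373 and 811 CPM, then 119.6 and 62.1 CPM in the female line, and 857 and 851 CPM, then 47.7 and 330.1 CPM in the male line, a change of -2.88 ± 0.59 (adjusted p = 0.00942). Replicate 3 of the male line at day 10 was the highest of its day, and without it the change was -3.83.

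miR-488-3p, whose hairpin lies within Astn1, a gene of neurons, had 52.7 and 68.7 CPM, then 18.6 and 12.2 CPM in the female line, and 139 and 89.7 CPM, then 9.59 and 20.2 CPM in the male line. The days were apart, and it fell by 2.46 ± 0.39 (adjusted p = 0.00352). In the male line alone it was called as well (-2.94 ± 0.53, adjusted p = 0.0471).

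In the miR-200 family, known for maintaining epithelial character, 2 of 10 tested arms fell, against 8.42% of all. None rose, and the median was 0.03. The 2 came from the miR-200c/miR-141 hairpins of chromosome 6. miR-200c-3p had 94.5 and 75.9 CPM, then 58.3 and 56.1 CPM in the female line, and 177 and 145 CPM, then 39.9 and 50.9 CPM in the male line, a change of -1.20 ± 0.34 (adjusted p = 0.0433). miR-141-5p fell by 1.34 ± 0.36 (adjusted p = 0.0337). Each had its days apart, yet the call of miR-200c-3p held only without replicate 3 of the female line at day 4 (otherwise 0.0511 to 0.13), and that of miR-141-5p only without replicate 3 of the female line at either day (otherwise 0.0594 to 0.102). The abundant arms from chromosome 4 were not called: miR-429-3p differed by 0.64 ± 0.32 (adjusted p = 0.203) and miR-200a-3p by 0.62 ± 0.35 (adjusted p = 0.24).

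The Dlk1-Dio3 region of chromosome 12 is an imprinted locus whose miRNAs come from the maternal copy. Of its 25 tested arms near Meg3 and Rtl1, none rose and 1 fell, with a median of -0.46. Of the 80 from Rian to Mirg, none rose and 3 fell, with a median of -0.42, and 73 of those 80 had a negative change. Over all tested miRNAs 8.42% fell, a larger share than in either stretch. With the experiment blocked within lines, 5 of 25 and 6 of 80 arms were lower, against 10.7% of all, and with the experiment number as a term 6 of 25 and 14 of 80, against 13.3%. miR-485-5p, in Mirg, fell from 911 and 684 CPM to 317 and 322 CPM in the female line and from 604 and 366 CPM to 274 and 198 CPM in the male line (-1.18 ± 0.29, adjusted p = 0.0223). Its call ended without 5 of the 8 libraries (all but replicate 3 of either line at day 4 and replicate 2 of the male line at day 10, adjusted p from 0.0506 to 0.1). miR-127-3p, the most abundant arm there, had 176350.0 and 113867 CPM, then 96449.5 and 43059 CPM in the female line, and 101584 and 68987 CPM, then 87954 and 42881 CPM in the male line. It was not called (-0.72 ± 0.35, adjusted p = 0.187) but passed with the experiment blocked within lines (0.0284) or added (0.0117). Replicate 2 was the higher library in all 4 groups. miR-541-5p, from Mirg, overlapped between days as well (-0.27 ± 0.40, adjusted p = 0.697). miR-434-3p differed by -0.72 ± 0.23 (adjusted p = 0.0648, or 0.0283 and 0.0121 with the 2 blocks).

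The imprinted Sfmbt2 cluster of chromosome 2, a large rodent family of repeated hairpins known from the placenta, had 2 of 53 tested arms higher and none lower, a share near the 4.34% called higher over all miRNAs, with a median of 1.19. The own medians were 0.24 for the female line and 1.95 for the male line, where 14 arms were called higher, against 3.42% of all miRNAs in that line. With RLE or total-count scaling, 0 of these arms were called in the male line, where no miRNA was called at all. The male medians were then 1.87 and 1.86. The summed level was 1405 and 2008 CPM, then 1201 and 2544 CPM in the female line, and 466 and 765 CPM, then 2539 and 2149.8 CPM in the male line. miR-467a-5p had 60.9 and 129 CPM, then 485 and 365 CPM in the male line (2.16 ± 0.51, adjusted p = 0.0471), and 182 and 246 CPM, then 201 and 315 CPM in the female line (0.27 ± 0.49, adjusted p = 0.823). No member passed the test of the difference between the lines. With the experiment number as a term, 12 members were higher over both lines, against 10.5% of all miRNAs. Many copies of this family share nearly identical sequences, and the counting of reads that fit several copies is not given in the sources used here.

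Few calls fell in the remaining family lists. The miR-183/96/182 cluster, known from sensory organs, had 0 of 6. Its miR-182-5p, among the 5 most abundant miRNAs at day 10, had 151580.0 and 78489 CPM, then 119554 and 68866 CPM in the female line, and 130822 and 65523 CPM, then 153354 and 77463 CPM in the male line, with overlap between days (-0.03 ± 0.36, adjusted p = 0.964). The miR-181 family had 0 of 8 called and a median of 0.91. With the experiment number as a term, 5 of its arms were higher, against 10.5% of all miRNAs. Its most variable member was miR-181a-5p, at 2852 and 799 CPM and then 2339 and 1462 CPM in the female line and 1222 and 395 CPM and then 7591 and 2053 CPM in the male line (1.32 ± 0.70, adjusted p = 0.222, or 0.0355 with that term). miR-125b-5p, a paralog of miR-125a-5p on chromosome 9, was called in the male line alone (3.14 ± 0.74, adjusted p = 0.0471), from 7.47 and 13.2 CPM to 86 and 96.7 CPM. In the female line it overlapped between days, at 15.4 and 41.6 CPM and 19.1 and 76.6 CPM. Over both lines it was not called (1.94 ± 0.64, adjusted p = 0.0705), but passed with the blocks (0.0439 and 0.0298). miR-205-3p, known from stratified epithelia, was also called in the male line alone (2.93 ± 0.71, adjusted p = 0.0471), from 27.5 and 10.2 CPM to 196 and 93.3 CPM, beside 90.9 and 27.7 CPM and then 36.8 and 34.2 CPM in the female line (-0.74 ± 0.66, adjusted p = 0.613).

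**Figure D4:**
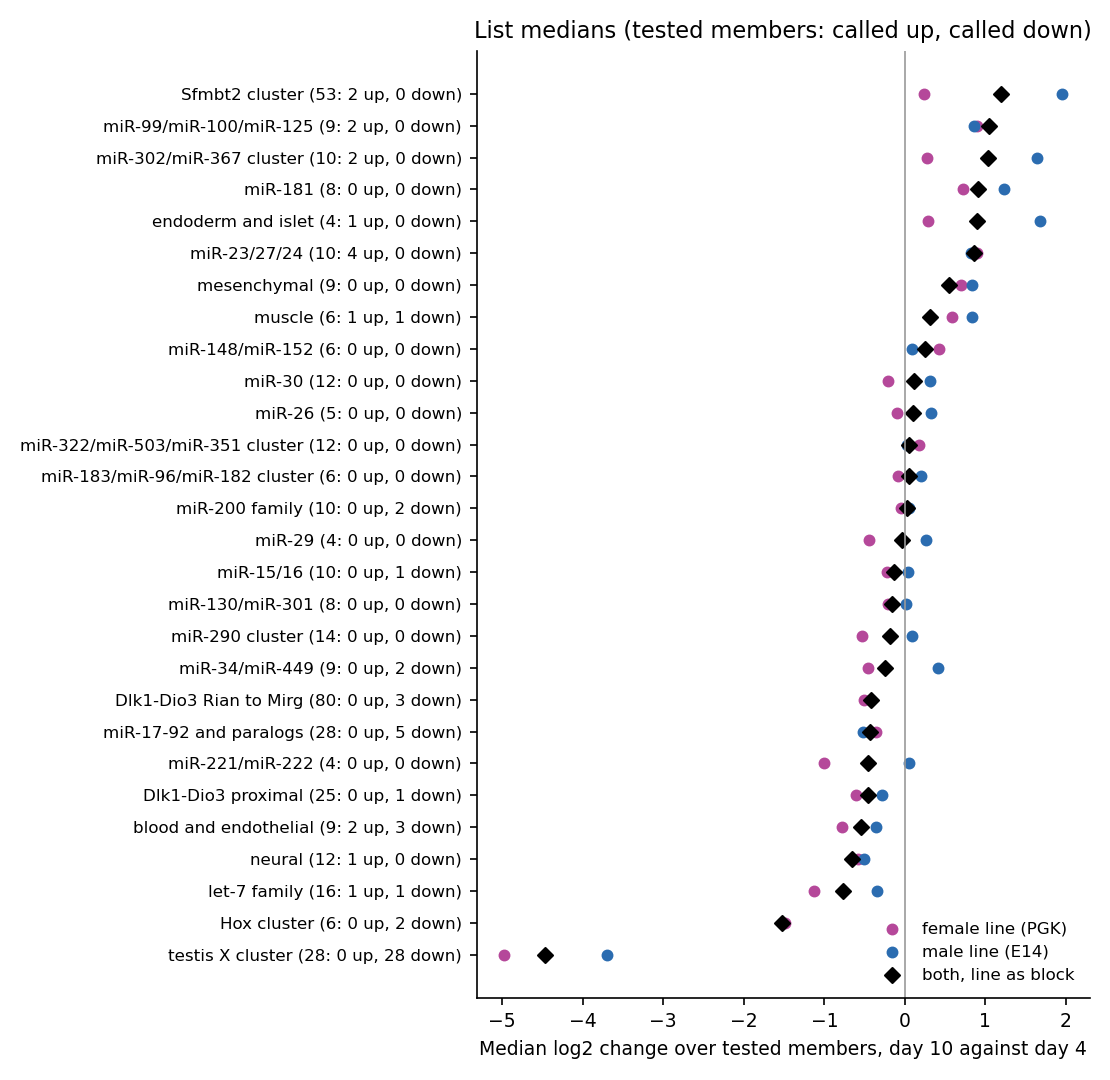
Median log2 change from day 4 to day 10 over the tested members of 28 lists of miRNA families, clusters and cell types, for both lines with line as a block (diamonds), the female line and the male line (circles). Numbers beside each list give the tested members and how many were called higher and lower over both lines. The single clusters split off from these lists, such as miR-23a/27a/24-2, are not plotted. Among the 28, the X-linked germ cell list has the lowest median, -4.47, and the Sfmbt2 list the highest, 1.19.

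Lists of other cell types were read in the same libraries. Over all tested miRNAs, 4.34% were called higher and 8.42% lower. In lists this small, 1 call says little about a cell type. Of 12 tested neural arms, 1 rose (miR-138-5p) and none fell, with a median of -0.65 and a summed level between 1157 and 2348 CPM over all 8 libraries. Of 9 mesenchymal arms none was called (median 0.54), and the sum went from 14187 and 8816 CPM to 22526 and 14580.4 CPM in the female line and from 9899 and 11168 CPM to 47512 and 15600.5 CPM in the male line, mostly miR-21a-5p. Of 9 blood and endothelial arms 2 rose and 3 fell (median -0.54), and the sum went from 1235 and 891 CPM to 681 and 598 CPM in the female line and from 1059 and 1063 CPM to 816 and 818 CPM in the male line.

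The risers of the blood list were the arms of miR-486, known from red cells and muscle. miR-486-5p rose by 1.10 ± 0.30 (adjusted p = 0.038), from 49.7 and 39.6 CPM to 112 and 120.2 CPM in the female line and from 51.8 and 40.4 CPM to 99 and 64.1 CPM in the male line. That call held only without replicate 3 of the male line at day 10 (otherwise 0.0563 to 0.146). The red cell miRNAs miR-451a and miR-144 had too few counts to be tested, with 41 counts of miR-451a over the 8 libraries. The fallers were both arms of miR-142, with miR-150-5p.

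Of 6 tested muscle arms, 1 rose (miR-208b-3p) and 1 fell (miR-208a-3p), against 4.34% and 8.42% of all. The summed level was between 33.1 and 125.9 CPM in all 8 libraries. The fall of miR-208a-3p rests on 41 counts over the 8 libraries, near the floor. The skeletal muscle miRNA miR-206-3p had 1 count in the 8 libraries and miR-1a-3p 27 counts. miR-133a-3p differed by -1.55 ± 0.50 (adjusted p = 0.0646, or 0.0404 and 0.0289 with the blocks). miR-499-5p was called lower in the female line alone, from 6.48 and 4.51 CPM to 1.1 and 0.929 CPM (-2.42 ± 0.60, adjusted p = 0.049). Of 4 endoderm and islet arms, 1 rose (miR-375-3p), and the liver miRNA miR-122-5p had 1 count in all. miR-192-5p, known from gut and kidney epithelia, differed by 0.58 ± 0.35 (adjusted p = 0.282). Of 6 miRNAs of the Hox clusters, none rose and 2 fell, against 8.42% of all tested miRNAs lower, with a median of -1.53. miR-10a-5p fell from 20.4 and 9.99 CPM to 3.53 and 7.74 CPM in the female line and from 21.7 and 12.1 CPM to 2.29 and 4.67 CPM in the male line (-1.85 ± 0.46, adjusted p = 0.0232), a call that ended without replicate 2 of any group (0.0539 to 0.0768). The part of other cell types in the results was not tested.

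Both arms of a hairpin mostly moved together. Of 265 hairpins with both arms tested, 213 had changes of one sign, and where both arms reached 50 CPM, 75 of 78 were within 1 log2 unit of each other. In 21 hairpins both arms were called, and in all 21 the direction was the same. These were not 21 separate cases. Many were hairpins of the X-linked germ cell cluster, and miR-486 stood beside its antisense entry miR-3107, with 5p counts within 3.45% of each other. The largest gap among the 78 was that of miR-210, known from low oxygen. miR-210-3p had 243 and 170.0 CPM, then 628 and 165 CPM in the female line, and 599 and 868 CPM, then 4395 and 1329.7 CPM in the male line (1.45 ± 0.50, adjusted p = 0.0761), and miR-210-5p differed by 0.18 ± 0.53 (adjusted p = 0.848). Neither arm was called. Next came miR-302d, whose 3p arm is described above and whose 5p arm differed by 0.22 ± 0.47 (adjusted p = 0.795), and then miR-302a, with 0.52 ± 0.50 for its 5p arm (adjusted p = 0.533).

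To place this step in the whole series, the 20 libraries were fitted together over 813 miRNAs, where 171 were called between day 4 and day 10 (21%, of which 6.15% higher and 14.9% lower). Between day 0 and day 4 there were 459 (56.5%, of which 32.1% higher and 24.4% lower), and between day 10 and days 19 to 23 only 3, all lower (0.369%). These comparisons share libraries, so they are given side by side, as means of 2 libraries in CPM scaled over all 20. In the female line the mean of miR-302a-3p was 41.8 CPM for day 0, 5317 CPM for day 4 and 7733 CPM for day 10, and later 4034 CPM (days 19 to 23) and 4092 CPM (days 27 to 30). The male means were 91.7, 3755 and 16179.7 CPM at day 0, day 4 and day 10, and later 8556 and 6901 CPM. miR-218-5p went in the female line from 373 at day 0 down to 105 at day 4, and stood at 435 at day 10 and 489 at days 19 to 23.

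miR-92a-3p and miR-488-3p were highest at day 4. In the male line miR-92a-3p had 71907 at day 0, 192160.0 at day 4, 80707 at day 10 and 68799.7 at days 19 to 23. miR-488-3p had 1.62, 139.8, 14.7 and 23.1 CPM at the same stages. miR-200c-3p went on falling after day 10: in the female line it had 112 at day 4, 65.9 at day 10 and 5.32 at days 19 to 23, and over both lines the later change was -3.02 ± 0.28 (adjusted p = 1.2e-05). It and miR-141-5p (-2.66 ± 0.41, adjusted p = 0.00289) were 2 of the 3 miRNAs called after day 10.

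**Figure D5:**
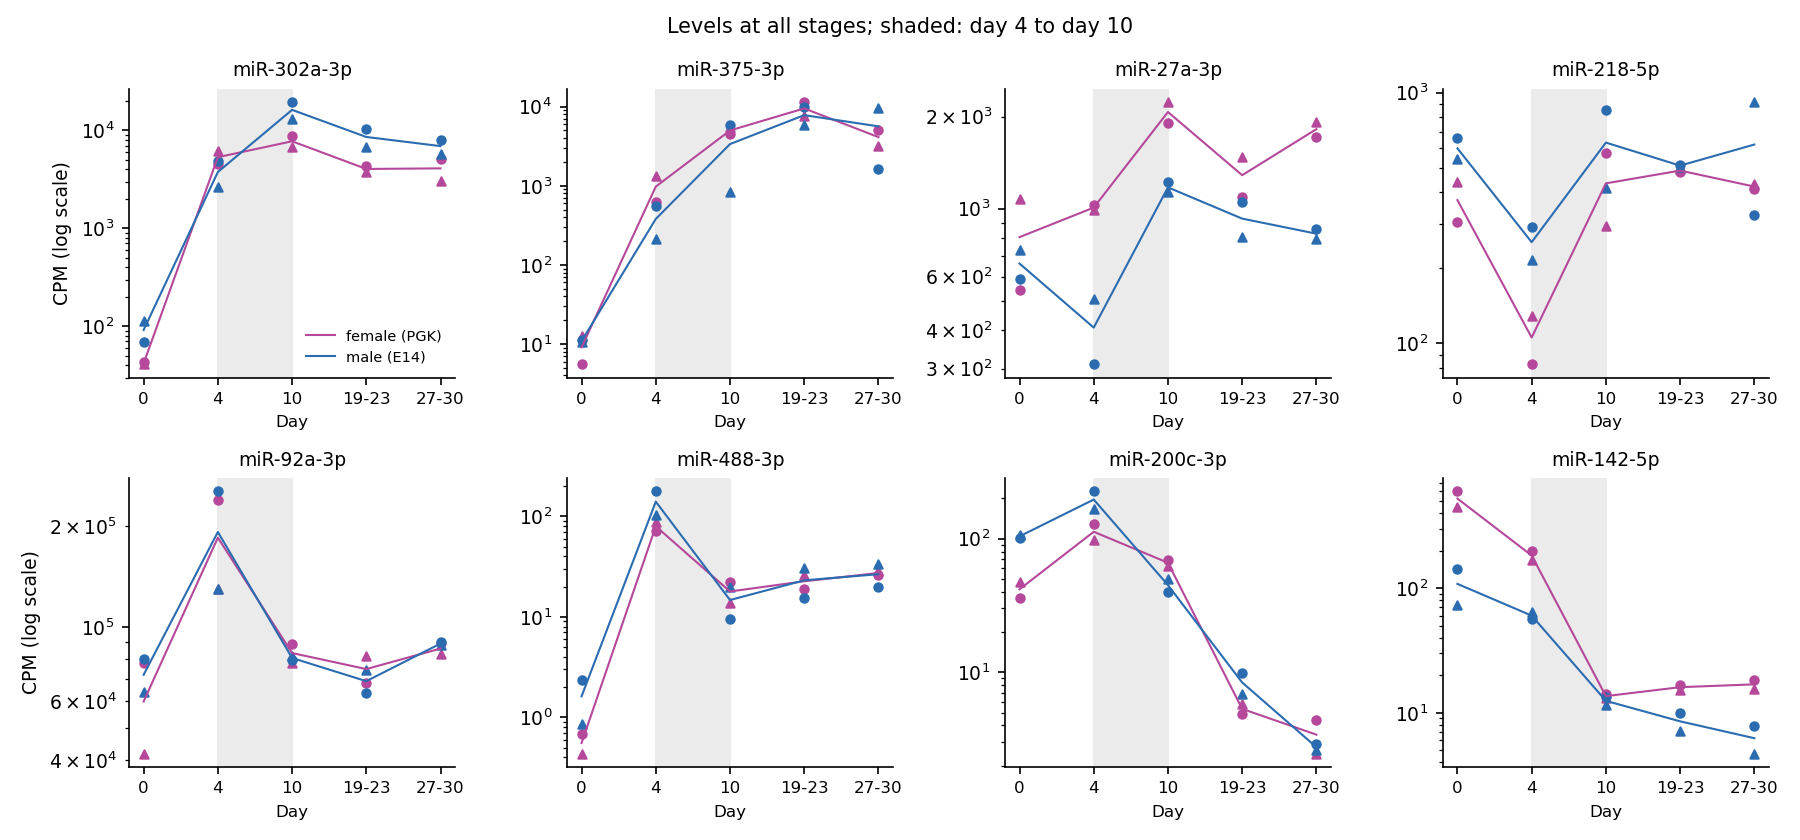
CPM on log scales, scaled over all 20 libraries, of 8 miRNAs at day 0, day 4, day 10, days 19 to 23 and days 27 to 30. Circles are replicate 2, triangles replicate 3, and lines join the means of the female and the male line. Shading marks the step from day 4 to day 10. miR-302a-3p, miR-375-3p, miR-27a-3p and miR-218-5p are higher at its end and the lower row is lower, and miR-200c-3p goes on falling afterwards.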

How the data were processed

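Small RNA of 8 cultures (female and male line, day 4 and day 10, 2 libraries each) was read from the authors' deposited raw tables, where each entry is a read count. RNA was extracted with Trizol and phenol and treated with DNase before Illumina library preparation, per the labels' protocols. The submitters' processing notes name the genome builds mm10 and GRCm38, CASAVA 1.8.2 and DESeq2. Not given in the sources used here are the aligner, the miRNA release and how reads fitting several places were treated, so identical mature sequences can share counts. Only the 1063 miRNAs in both tables (1091 male, 1109 female) were used, of which 53 had 0 counts in all 8 libraries.

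edgeR 4.0.16 in R 4.3.3 was run with its expression filter by line and day (760 miRNAs kept, holding 99.996% of the counts), TMM factors (0.747 to 1.31) and the quasi-likelihood F test. The comparison over both lines had line as a block and 5 residual degrees of freedom. Each line's own change, and the difference between lines, came from 1 fit with a coefficient per line and day and 4 residual degrees of freedom. Adjusted p-values are Benjamini-Hochberg over all 760, with a threshold of 0.05. Standard errors are the change divided by the square root of F. The procedure was tested on simulated counts, drawn independently for each library with no shared effect of the experiment. It recovered 35.4% of 96 2-fold changes and 89.5% of 95 4-fold changes, and called 7 of 548 unchanged miRNAs. A miRNA not called can therefore still have changed about 2-fold. Libraries held 7362470 to 18031067 counts, so that 3 counts correspond to 0.166 to 0.4075 CPM, which covers counting error only.

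Day 4 and day 10 libraries of a line carry the same experiment name in their labels (diff2 or diff3). Deviations from the group means over 480 miRNAs correlated between days with r of 0.474 (female line) and 0.264 (male line), and between lines with 0.723 at day 4 and 0.370 at day 10. Pairing the libraries by number rests on the labels. The highest correlation was between lines at day 4, so the libraries of a day may not be independent. The main calls, with line alone as a block, ignore this. Values with the experiment as a block are given for many calls it changed, not all. With the experiment number as a term, 2 of 6 tested miR-148/miR-152 arms and 2 of 12 of the miR-322/miR-503/miR-351 cluster were higher. Of 8 miR-130/miR-301 arms, 1 was higher and 1 lower. Over all miRNAs, the same fit called 10.5% higher and 13.3% lower. With line alone as a block, no arm of these lists was called.

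The miRNAs named are the 12 highest and 12 lowest called ones of at least 50 CPM with non-overlapping days, up to 5 in each direction per line by the same rule, the 5 most abundant at day 10, up to 4 members of each list and the hairpins whose arms differed most. Members and lists were chosen with earlier results of these data known. Mature sequences were matched by name. Other scalings, filters, DESeq2 1.42.0, all 20 libraries, other blocks, and leaving out each library were tried as alternatives.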

Additional observations from a re-analysis of the deposited data

How the results depend on the processing

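Over both lines, the 97 calls became 104 with RLE scaling, 91 with total counts, 119 without a filter and 111 as the mean of both own changes. Counts further away were 58 with at least 10 CPM, 169 with DESeq2, 171 with all 20 libraries, 10 without any block, 181 with the experiment number as a replicate block, and 48 without the X-linked germ cell list (added after seeing the data, like the mean of own changes). The replicate block within lines gave 132. Leaving out 1 library gave 55 to 115. The female line's 35 calls became 18 with at least 10 CPM, 62 with DESeq2, 53 with all 20 libraries, 60 with the replicate block and 3 without the germ cell list, and 0 to 41 with 1 library left out. The male line's 37 became 0 with RLE scaling, total counts or at least 10 CPM, 76 without a filter, 97 with DESeq2, 66 with all 20 libraries and 98 with the replicate block, and 0 to 68 with 1 library left out. At an unadjusted p under 0.05, these male settings with 0 calls had 158, 139 and 108 miRNAs. The difference between lines had 0 calls under every alternative run, with 24 to 81 miRNAs at an unadjusted p under 0.05.

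Of 83 named miRNAs 44 were called; 23 of these kept the call with every library left out, 5 kept it under every setting, and none changed direction. Of those not called, 7 crossed 0. With 1 library left out, the log2 change ran from -0.298 to 0.248 for miR-182-5p, -0.428 to 0.515 for miR-210-5p, -0.387 to 0.0417 for miR-25-3p, -0.0247 to 0.203 for miR-27b-3p, -0.0365 to 0.892 for miR-302a-5p and -0.248 to 0.630 for miR-302d-5p. With all 20 libraries it was -0.0428 for miR-210-5p, -0.115 for miR-27b-3p, -0.0560 for miR-302d-5p and -0.00997 for miR-23b-3p. For miR-182-5p it was 0.124 with total counts, and for miR-210-5p -0.0198 and -0.0896 with the replicate block within lines and as a term. The causes were not tested. Depth limits the male values of the germ cell list, where 11 members had 0 counts in both libraries of day 10. With 2 libraries per group, single libraries decide many calls.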

Other observations

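Some miRNAs under 50 CPM passed the test over both lines, and those named here were chosen after their values were seen. miR-204-5p and miR-211-5p share the seed UCCCUUU. They lie in introns of Trpm3 and Trpm1, 2 genes of one channel family, and are known from pigmented and eye tissues. miR-204-5p had 7.08 and 9.55 CPM, then 2.13 and 2.55 CPM in the female line, and 12 and 22.9 CPM, then 4.36 and 3.42 CPM in the male line, a change of -1.99 ± 0.37 (adjusted p = 0.00605). miR-211-5p had 8.87 and 15.5 CPM, then 4.2 and 0.387 CPM in the female line, and 8.94 and 23.6 CPM, then 0.787 and 0.798 CPM in the male line, a change of -3.30 ± 0.73 (adjusted p = 0.0131). All day 10 libraries of both lay below all day 4 libraries, and the call of miR-211-5p ended without replicate 2 of the male line at day 10 (adjusted p = 0.0617). Without replicate 2 of the female line at day 10, its change was -4.54.

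miR-449a-5p, in an intron of Cdc20b and known from cells with motile cilia, fell from 28 and 17.7 CPM to 7.8 and 7.82 CPM in the female line and from 24.3 and 26.6 CPM to 3.58 and 12 CPM in the male line (-1.63 ± 0.40, adjusted p = 0.0223). Its call ended without replicate 2 of either line at day 4 or replicate 3 of the female line at day 10 (adjusted p from 0.0553 to 0.0665). In the related miR-34 hairpins no arm was called.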
